A study of Mus musculus with 9 samples.

Results

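The collagen genes of the mouse were examined in the stimulated ovary: the 44 genes, of 54838 in the table, whose symbol is Col, a number, a and a number (Col1a1 to Col28a1). They were sorted by the known type of collagen into 11 fibrillar, 9 basement membrane, 6 microfibrillar, 9 fibril-associated (FACIT), 3 short-chain network, 4 transmembrane and 2 other genes. Ovaries came from adult mice 40 h after pregnant mare serum gonadotropin (PMSG), a hormone that drives follicle growth, and the total RNA of 9 libraries was sequenced, in 3 groups of 3. The groups were wild-type mice (WT), mice lacking both liver X receptors, LXRa and LXRb (DKO), and mice with that double knockout that the labels give a transgene, TG-AMH-LXRb, whose name joins the Amh gene of granulosa cells to LXRb (DKO_TG). All animals received PMSG, and no unstimulated ovary was compared. Whether each library is a separate animal is not stated in the labels, and the p-values reflect only how these samples vary, some of which may be technical. The comparisons ask which collagen genes differ without the receptors, and which of them differ when the transgene is present.

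Collagens are extracellular proteins whose chains wind around each other in trimers as a triple helix. Fibrillar collagens give tissue its tensile strength, collagen IV forms the sheet-like network of basement membranes around follicles and vessels, collagen VI makes beaded microfibrils near cells, and FACIT collagens bind to the surface of fibrils. In the ovary these matrices surround each growing follicle and fill the stroma and the capsule, and they are remodelled as follicles grow and rupture.

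Promoter sequence is shown for 3 members on which the results turn. Col6a2 is a collagen VI gene that was lower in both knockout groups. Col20a1 is the tested member with the largest rise on the fitted log2 scale, and Col3a1 an abundant fibrillar gene that was not called. Each line gives the 250 bases before the start of the gene, 5′ to 3′ on the strand of the gene, from RefSeq on GRCm38.p6. Capitals mark a TATAAA in Col3a1 at chr1:45311288-45311537 (plus strand), 117 bases before the start, and CCGCCC, the reverse complement of GGGCGG, in Col6a2 at chr10:76623631-76623880 (minus strand), 175 bases before the start. In Col20a1 at chr2:180986285-180986534 (plus strand) they mark TGACCT, the reverse complement of AGGTCA, 28 bases before the start.
Col6a2: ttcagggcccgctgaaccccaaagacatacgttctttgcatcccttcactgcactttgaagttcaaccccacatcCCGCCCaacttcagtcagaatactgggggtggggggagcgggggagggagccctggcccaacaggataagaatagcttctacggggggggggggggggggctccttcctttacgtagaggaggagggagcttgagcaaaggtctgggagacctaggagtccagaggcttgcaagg
Col20a1: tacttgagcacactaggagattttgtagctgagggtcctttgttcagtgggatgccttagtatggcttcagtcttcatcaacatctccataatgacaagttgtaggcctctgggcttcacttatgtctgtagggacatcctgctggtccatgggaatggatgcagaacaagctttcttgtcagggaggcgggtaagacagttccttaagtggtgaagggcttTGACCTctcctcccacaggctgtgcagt
Col3a1: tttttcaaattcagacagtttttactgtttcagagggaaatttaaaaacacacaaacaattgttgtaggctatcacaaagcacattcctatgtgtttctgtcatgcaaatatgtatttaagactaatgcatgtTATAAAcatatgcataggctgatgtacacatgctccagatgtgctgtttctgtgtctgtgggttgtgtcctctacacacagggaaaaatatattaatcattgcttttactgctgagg
Promoter windows were found for 35 of the 44 collagen genes, 38 windows in all. Searched on both strands, TATAAA was in 5 of the 38 windows and in 12.4% of all 32851 promoter windows of that length. CCAAT was in 13 windows against 33.8% of all, and GGGCGG was in 22 windows against 32.7% of all. The nuclear receptor hexamer AGGTCA was in 8 windows against 14.0% of all. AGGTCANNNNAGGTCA, the direct repeat bound by liver X receptors in its idealised form, was in 0 collagen windows and in 5 of all windows (0.0152%). These letters are a description of the windows, and an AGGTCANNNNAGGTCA match is also counted as AGGTCA.

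Levels are in RPKM (reads per kilobase of exon and per 1 M reads, on the authors' scale), and a level of 0.5 RPKM in at least 3 libraries was needed for a test, which 35 collagen genes passed and 9 did not. Whole reads could be recovered from the RPKM values, and the libraries held between 40.1 and 59.4 M of them. The targeted genes were lower in the libraries labelled as knockout: Nr1h3 (LXRa) had 4.68 ± 0.701 RPKM in WT against 0.807 ± 0.273 in DKO and 0.67 ± 0.145 in DKO_TG (mean ± SD, n = 3), and Nr1h2 (LXRb) was 18.8 ± 3.64, 6.53 ± 1.09 and 5.67 ± 0.458. Nr1h2 differed between DKO_TG and DKO by -0.18 on the log2 scale, which was not called (adjusted p = 0.621). The WT libraries stood apart across the whole table: their values correlated at 0.987 to 0.993 (log scale) with each other and at 0.912 to 0.944 with the DKO libraries. The nuclear RNA Malat1 rose from 7.38 ± 5.03 RPKM in WT to 199 ± 19.1 in DKO and 261 ± 16.4 in DKO_TG, and Neat1 was 0.577 ± 0.304, 55.3 ± 12.7 and 58.4 ± 8.94. The scaling behind the RPKM values also differed, since the library size they imply was 0.793 to 0.92 of the recovered reads in WT and 1.034 to 1.11 in the other libraries. All comparisons with WT share these 3 libraries, and the part of nuclear RNA or of scaling in the collagen values was not tested beyond the other scalings given below.

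Differences were tested with limma on log2(RPKM + 0.5) over 18889 genes, and a gene was called at a Benjamini-Hochberg adjusted p under 0.05. In DKO against WT, 8 of the 35 tested collagen genes were higher, which is 22.9% against 30.8% of all tested genes. Another 11 were lower, which is 31.4% against 25.9% of all tested genes. In DKO_TG against WT, 7 of the 35 were higher, or 20%, beside 29.1% of all tested genes, and 12 were lower, or 34.3%, beside 22.3% of all. Of the called genes, 7 were higher and 10 were lower in both comparisons, which share the WT libraries. The share of all tested genes called in both is not given here, so this overlap is not read as particular to collagen genes. The median change of the tested collagen genes was -0.15 on the log2 scale in each comparison, and that of all tested genes was 0.02 in DKO and 0.03 in DKO_TG. With TPM, the per-length values of every library have the same sum, which moved the median of all genes to 0.48 in DKO. DKO against WT then gave 16 collagen genes higher and 2 lower, and the median of the tested collagen genes was 0.18. The share of all tested genes called with TPM is not given here. Of the higher genes, Col20a1, Col4a3, Col7a1 and Col11a2 were below 0.5 RPKM in every WT library and so passed the filter through the groups where they are high. Over all tested genes, 27.5% of the higher calls in DKO and 27.4% in DKO_TG were of genes below 0.5 RPKM in every WT library. The other 31 tested collagen genes gave 4 higher calls in DKO and 3 in DKO_TG. Among all other tested genes, 4218 of 17035 were higher in DKO and 3984 of 17035 in DKO_TG.

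**Figure D1:**
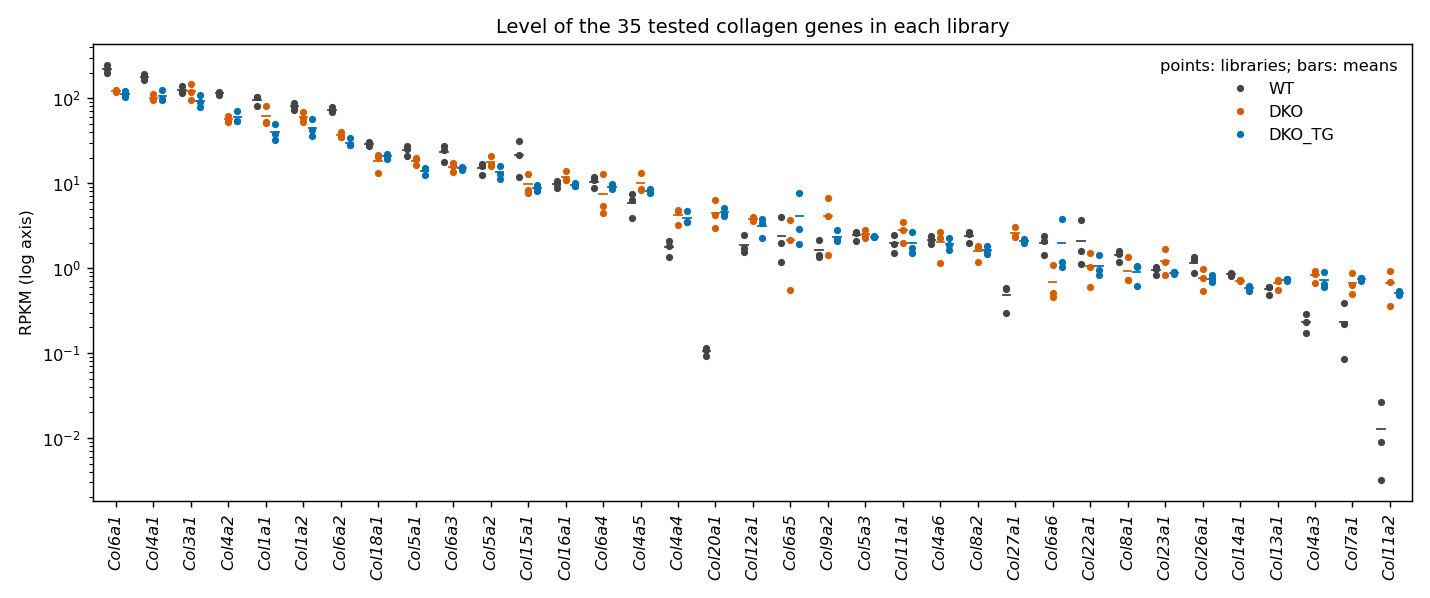
Level of each of the 35 tested collagen genes (RPKM, log axis) in the 9 libraries, ordered from the highest to the lowest mean. Points are libraries, and bars are the means of 3. The genes span from 151 RPKM (Col6a1) to 0.396 RPKM (Col11a2) in the mean of all libraries, and the WT points of Col20a1, Col27a1 and Col11a2 lie below all others of their gene.

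The calls differed with the level of the gene. Among the 13 collagen genes with a mean of at least 10 RPKM, 0 were higher and 9 (69.2%) were lower in DKO, with a median change of -0.65. The 4212 protein-coding genes at that level had 15.6% higher and 43.0% lower, with a median of -0.27. In DKO_TG against WT, 0 of the 13 were higher and 10 were lower (76.9%), with a median of -0.78, where protein-coding genes at that level had 15.6% higher, 36.9% lower and a median of -0.22. Among the 22 collagen genes under 10 RPKM, 8 were higher and 2 lower in DKO, with a median of 0.18, and the 9003 protein-coding genes at that level had 39.3% higher, 12.9% lower and a median of 0.2. In DKO_TG, 7 of the 22 were higher and 2 lower, with a median of 0.1 against 0.19 for the protein-coding genes. Across the 35 genes, Spearman's rho between level and change was -0.45 in DKO and -0.61 in DKO_TG, against -0.4 and -0.36 across 13215 protein-coding genes, which are not independent replicates. With other scalings the calls of the 13 abundant genes in DKO were 3 higher and 2 lower (TPM), 1 and 3 (quantile), or 2 and 4 (plain total of reads). Protein-coding genes at that level then had 43.7% higher and 8.45% lower (TPM), 24.8% and 19.6% (quantile), or 30.0% and 19.9% (plain total). In DKO_TG the 13 genes gave 0 higher and 4, 5 or 7 lower with the same scalings. Protein-coding genes at that level had 44.9%, 22.9% and 28.3% higher and 6.98%, 18.5% and 19.2% lower there. The median of the 13 collagen genes stayed below that of protein-coding genes of the same level with each of these scalings. It was -0.1 against 0.27 with TPM in DKO and -0.27 against 0.3 in DKO_TG.

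**Figure D2:**
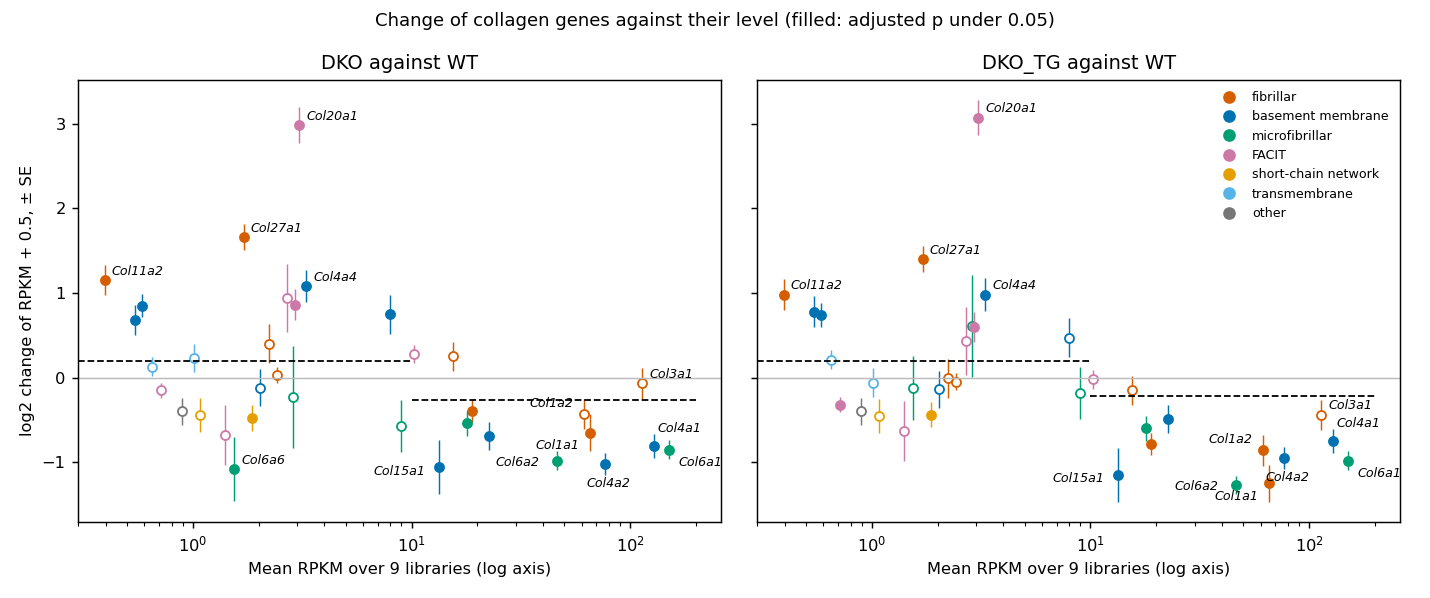
Change of each tested collagen gene (log2 of RPKM + 0.5, ± SE) against its mean level over 9 libraries (RPKM, log axis), in DKO against WT (left) and DKO_TG against WT (right). Filled points have an adjusted p under 0.05, colours mark the class, and dashed lines mark the median of protein-coding genes under and above 10 RPKM. All 13 genes at 10 RPKM or more except Col5a2 and Col16a1 lie below 0 in DKO, and TPM rescaling moves the median of all genes up by 0.47 in DKO and 0.44 in DKO_TG.

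Collagen IV showed opposite calls within its chains. Collagen IV trimers of the alpha1 and alpha2 chains form nearly every basement membrane, while alpha3, alpha4 and alpha5 assemble the network known from kidney and other specialised membranes, and alpha5 also pairs with alpha6. Each pair of genes sits head to head on mm10. Col4a1 (chromosome 8, 11198423 to 11312826, minus strand) and Col4a2 (chromosome 8, 11312805 to 11449287, plus strand) overlap at their starts by 22 bases, shown on the plus strand at chr8:11312805-11312826 because the pair fell together.
Start overlap of Col4a1 and Col4a2: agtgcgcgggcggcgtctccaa
The starts of Col4a3 (chromosome 1, 82586921 to 82722059) and Col4a4 (chromosome 1, 82448423 to 82586849) lie 72 bases apart, and those of Col4a5 and Col4a6 on chromosome X lie 1309 bases apart.

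Col4a1 was 164, 190 and 178 RPKM in the WT libraries, 97.4, 111 and 94.1 in DKO and 126, 94.2 and 97.3 in DKO_TG. Its lowest WT library was above its highest knockout library in either group. The means were 177 ± 13, 101 ± 9.16 and 106 ± 17.4 RPKM (SD, n = 3), a log2 change of -0.81 ± 0.14 (SE) in DKO (adjusted p = 0.00127) and -0.75 ± 0.14 in DKO_TG (adjusted p = 0.002). Col4a2 was 109.6, 118 and 114 RPKM in WT against 54, 62.3 and 52.1 in DKO and 70.5, 54 and 53.4 in DKO_TG. The groups again did not overlap with WT, and the WT mean was 2.03 times the DKO mean and 1.92 times the DKO_TG mean. The log2 change of Col4a2 was -1.02 ± 0.13 in DKO (adjusted p = 0.000272) and -0.95 ± 0.13 in DKO_TG (adjusted p = 0.000443), and it was called under each alternative tried. The calls of Col4a1 were lost with TPM and with quantile scaling (adjusted p up to 0.446 in DKO and 0.45 in DKO_TG).

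The minor network chains went the other way. Col4a4 was 1.34, 1.83 and 2.08 RPKM in WT, 4.71, 3.23 and 4.86 for DKO and 4.75, 3.48 and 3.52 for DKO_TG. Each knockout library was above each WT library, with means 2.44 and 2.24 times that of WT, log2 changes of 1.08 ± 0.19 (adjusted p = 0.00147) and 0.98 ± 0.19 (adjusted p = 0.00264), and a call under each alternative. Its neighbour Col4a3 was 0.171, 0.229 and 0.287 RPKM in WT against 0.863, 0.67 and 0.923 in DKO and 0.909, 0.65 and 0.6 in DKO_TG. Those groups did not overlap with WT either, and the means rose 3.58 and 3.15 times, with adjusted p of 0.00116 and 0.00264 that quantile scaling raised to 0.129 and 0.402. Col4a3 shares 563 exonic bases (5.65% of its exons) with the antisense gene C430014B12Rik, and the use of strand in counting is not given in the sources used here, so its value is uncertain by the reads of that gene, which was at most 0.172 RPKM in any library.

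Col4a5 was 3.86, 6.25 and 7.45 RPKM in WT, 13.2, 8.56 and 8.39 for DKO and 8.63, 7.81 and 7.71 for DKO_TG. WT did not overlap with either group, and the log2 change was 0.75 ± 0.23 in DKO (adjusted p = 0.0235) and 0.47 ± 0.23 in DKO_TG (adjusted p = 0.122). The DKO call was lost without DKO replicate 1 or without WT replicate 1 (adjusted p up to 0.0735). It was also lost with the replicate number as a block and in a fit of only the 6 libraries compared. Col4a6 ranged from 1.16 to 2.64 RPKM over the DKO libraries and from 1.92 to 2.39 over the WT libraries, with a log2 change of -0.12 ± 0.22 (adjusted p = 0.652). Within each library, the sum of Col4a3, Col4a4 and Col4a5 was 1.96, 2.69 and 3.36% of the sum of Col4a1 and Col4a2 in WT. The share was 12.4, 7.18 and 9.7% in DKO and 7.28, 8.05 and 7.85% in DKO_TG. The scaling of a library cancels in this share, which was defined after the values were seen and is given without a test. The share sets genes under 10 RPKM over abundant ones, and the table-wide difference by level does not cancel. Protein-coding genes under 10 RPKM had a median change of 0.2 in DKO and 0.19 in DKO_TG. Those at 10 RPKM or more had -0.27 and -0.22.

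The other basement membrane genes also split. Col18a1 and Col15a1 encode multiplexin collagens, which carry heparan or chondroitin sulfate chains and anchor basement membranes to the matrix below. Col18a1 was 27.4 to 30.5 RPKM in WT, 13.1 to 21.3 in DKO and 19 to 21.8 in DKO_TG, without overlap, with log2 changes of -0.69 ± 0.17 (adjusted p = 0.00774) and -0.49 ± 0.17 (adjusted p = 0.0367). With TPM the DKO_TG change of Col18a1 was 0.03 and neither call stood. Both calls were also lost with quantile and plain total scaling. The DKO_TG call was lost as well without a filter, with a replicate block, and when any 1 of the 6 libraries compared was left out. Col15a1 varied widely in WT (11.8, 21.7 and 31.4 RPKM) against 8.28, 12.9 and 7.72 in DKO and 9.38, 8.16 and 8.82 in DKO_TG. The lowest WT library lay below the highest DKO library, and the call in DKO (-1.06 ± 0.32, adjusted p = 0.0199) was lost without WT replicate 2, WT replicate 3, DKO replicate 1 or DKO replicate 3 (adjusted p up to 0.0629). It was also lost with TPM (-0.53, adjusted p = 0.215) and plain total scaling (-0.75, adjusted p = 0.0881). In DKO_TG all libraries of Col15a1 were below WT (-1.15 ± 0.32, adjusted p = 0.0153), a call lost with TPM and plain total scaling. Col7a1, the anchoring fibril collagen beneath epithelia, was 0.0849, 0.219 and 0.39 RPKM in WT against 0.866, 0.633 and 0.489 in DKO and 0.755, 0.696 and 0.761 in DKO_TG. It was higher in each knockout library than in each WT library, with log2 changes of 0.68 ± 0.18 and 0.78 ± 0.18 (adjusted p = 0.0113 and 0.00644) that quantile scaling brought to 0.06 and 0.19, where neither was called.

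The 3 abundant chains of collagen VI were lower in both groups. Of the 6 microfibrillar genes, 4 were lower and 0 higher in DKO (median -0.71), and 3 were lower and 0 higher in DKO_TG (median -0.39), where 25.9% and 22.3% of all tested genes were lower. The classical trimer joins the products of Col6a1, Col6a2 and Col6a3. Col6a1 (chromosome 10, 76708792 to 76726168) was the most abundant collagen gene per length, at 198, 219 and 247 RPKM in WT, 124, 119 and 121 for DKO and 121, 104 and 109 for DKO_TG. WT lay above both groups without overlap, with means of 221 ± 24.4, 122 ± 2.24 and 111 ± 8.77 RPKM (SD, n = 3). The log2 change was -0.85 ± 0.11 in DKO (adjusted p = 0.000356) and -0.98 ± 0.11 in DKO_TG (adjusted p = 0.00018). Its neighbour Col6a2 (chromosome 10, 76595762 to 76623630), whose promoter is printed above, was 68.9, 70.1 and 78.8 RPKM in WT against 34.8, 35.1 and 39.8 in DKO and 33.6, 28.3 and 27.9 in DKO_TG. The 3 groups did not overlap, and the WT mean was 1.98 times the DKO mean and 2.42 times the DKO_TG mean. Col6a2 changed by -0.98 ± 0.11 (adjusted p = 0.000127) and -1.27 ± 0.11 (adjusted p = 3.29e-05) and was called under each alternative. The Col6a1 call was lost with quantile scaling in both comparisons (-0.2 in DKO and -0.38 in DKO_TG) and with TPM in DKO (-0.3).

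Col6a3, the long chain of the trimer, was 17.9, 24.6 and 27 RPKM in WT, 17.4, 13.6 and 15.7 for DKO and 15.6, 15 and 14.1 for DKO_TG. The groups did not overlap with WT, but WT replicate 1 lay just above DKO replicate 1. Its changes were -0.54 ± 0.15 (adjusted p = 0.0156) and -0.6 ± 0.15 (adjusted p = 0.0109). Both calls were lost with TPM, quantile and plain total scaling (adjusted p up to 0.99), and that in DKO also without WT replicate 2 or 3. The 3 remaining genes, Col6a4, Col6a5 and Col6a6, encode chains that can take the place of the product of Col6a3 and lie side by side on chromosome 9. Col6a4 was 8.65 to 11.8 RPKM in WT and 4.47 to 12.7 in DKO. Col6a5 and Col6a6 were both highest in DKO_TG replicate 2, at 7.62 and 3.77 RPKM, and Col6a6 was lower in DKO (1.09, 0.453 and 0.504 RPKM against 1.41, 2.36 and 2.1 in WT, -1.08 ± 0.38, adjusted p = 0.0386). That call was lost with 8 of 20 alternatives, among them leaving out WT replicate 2 or 3 or DKO replicate 2 or 3 (adjusted p up to 0.107), and TPM (adjusted p = 0.176).

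The fibrillar genes divided by level and by chain. In DKO against WT, 2 of the 9 tested were higher and 2 lower (median 0.03), and in DKO_TG 2 were higher and 3 lower (median -0.15). Over all tested genes the shares were 30.8% higher and 25.9% lower in DKO, and 29.1% and 22.3% in DKO_TG. Col3a1 (chromosome 1, 45311538 to 45349706), the chain of collagen III in pliable tissues, was the most abundant of the class per length, at 114, 121 and 139.5 RPKM in WT against 95.9, 148 and 117 in DKO and 110, 89.1 and 78.9 in DKO_TG. The WT and DKO ranges overlapped, with a log2 change of -0.07 ± 0.18 and a 95% interval of -0.48 to 0.34 (adjusted p = 0.759). The DKO_TG libraries were all below those of WT, at -0.44 ± 0.18, which missed the threshold (adjusted p = 0.0723).

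Col1a1 and Col1a2 encode the chains of collagen I, the main protein of tendon, skin and stroma. Col1a1 (chromosome 11, 94936224 to 94953042) was 79.7, 102 and 103 RPKM in WT, 51, 80.7 and 52 for DKO and 50.2, 38.3 and 31.8 for DKO_TG. DKO replicate 2 lay just above the lowest WT library, while all DKO_TG libraries were below all others. The changes of Col1a1 were -0.65 ± 0.22 in DKO (adjusted p = 0.0324) and -1.25 ± 0.22 in DKO_TG (adjusted p = 0.0018). The DKO_TG call stood under each alternative, and the DKO call was lost in 8 of 20, among them leaving out WT replicate 2 or 3 or DKO replicate 1 or 3 (adjusted p up to 0.0966), and TPM (-0.1, adjusted p = 0.71). Col1a2 (chromosome 6, 4504814 to 4541544) was 71.6, 79.5 and 88.5 RPKM in WT against 51.9, 69.1 and 57.6 in DKO and 56.2, 41.7 and 35.7 in DKO_TG. WT lay above both groups, and the change was -0.43 ± 0.18 in DKO (adjusted p = 0.068) and -0.86 ± 0.18 in DKO_TG (adjusted p = 0.00398), the latter lost with TPM and quantile scaling.

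Collagen V co-assembles with collagen I and limits the width of its fibrils. Col5a1 (chromosome 2, 27886425 to 28039514) was 20.9, 25.4 and 27.4 RPKM in WT, 16.3, 19.1 and 19.8 for DKO and 15, 14.5 and 12.6 for DKO_TG. The 3 groups did not overlap. Col5a1 changed by -0.4 ± 0.13 in DKO (adjusted p = 0.0236) and -0.78 ± 0.13 in DKO_TG (adjusted p = 0.00112), and with TPM the DKO change was 0.14 and neither was called. Without WT replicate 2, WT replicate 3 or DKO replicate 1 the DKO call of Col5a1 was also lost. The same held with quantile and plain total scaling and in a fit of only the 6 libraries compared. Its partner Col5a2 was 12.3, 15.9 and 16.9 RPKM in WT against 16.9, 20.9 and 15.9 in DKO and 16.1, 12.9 and 11.3 in DKO_TG, with overlapping ranges and changes of 0.25 ± 0.17 (adjusted p = 0.222) and -0.15 ± 0.17 (adjusted p = 0.47). Col5a3 and Col11a1 were between 1.51 and 3.5 RPKM in every library and were not called in either comparison.

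Col27a1 and Col11a2, both known from cartilage, were the fibrillar genes that rose. Col27a1 (chromosome 4, 63214004 to 63334991), a fibrillar collagen with a short interrupted helix, was 0.293, 0.577 and 0.572 RPKM in WT, 3.07, 2.31 and 2.41 for DKO and 2, 2.01 and 2.19 for DKO_TG. The 3 groups did not overlap, and the means were 5.4 and 4.3 times that of WT. The changes were 1.66 ± 0.15 (adjusted p = 3.84e-05) and 1.4 ± 0.15 (adjusted p = 0.00011), called under each alternative. Col11a2 was 0.0032, 0.0262 and 0.00909 RPKM in WT against 0.932, 0.694 and 0.358 in DKO and 0.519, 0.483 and 0.541 in DKO_TG. WT was close to 0, and the means were 51.6 and 40.1 times that of WT. The changes of 1.15 ± 0.18 (adjusted p = 0.000879) and 0.98 ± 0.18 (adjusted p = 0.0021) were lost with quantile scaling. Whole reads were not recovered for Col11a2, so the counting error of its WT levels is unknown. As a share of Col1a1 in the same library, Col27a1 was 0.368, 0.563 and 0.555% in WT. It was 6.02, 2.87 and 4.62% in DKO and 3.98, 5.25 and 6.88% in DKO_TG. That share was defined after the values were seen. It too sets a gene of low level over an abundant one, so the table-wide difference by level does not cancel in it.

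The FACIT genes held the largest rise. In DKO against WT, 2 of the 6 tested were higher and 0 lower (median 0.57), and in DKO_TG 2 were higher and 1 lower (median 0.21), where 30.8% and 29.1% of all tested genes were higher. Col20a1 (chromosome 2, 180986535 to 181018363), which encodes the little-studied collagen XX, was 0.115, 0.0913 and 0.109 RPKM in WT, 6.3, 4.17 and 2.93 for DKO and 4.5, 4.14 and 5.14 for DKO_TG. All 6 knockout libraries were far above the 3 WT libraries, which held 27, 21 and 27 reads of the gene. The means were 42.6 and 43.8 times that of WT, and the log2 changes, which the pseudocount reduces, were 2.98 ± 0.21 (adjusted p = 1.20e-05) and 3.07 ± 0.21 (adjusted p = 1.12e-05). Both were called under each alternative. Of the exons of Col20a1, 79 bases (1.54%) are shared with BX649560.1, a transcribed gene of the same strand that also covers the printed window. That gene was 0.684, 0.907 and 1.32 RPKM in WT and 2.16 to 3.12 in the knockout libraries.

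Col12a1, which links fibrils of collagen I to other matrix, was 1.53, 1.71 and 2.42 RPKM in WT against 3.57, 3.96 and 3.86 in DKO and 3.8, 3.35 and 2.26 in DKO_TG. DKO lay above WT without overlap and was called under each alternative (0.86 ± 0.18, adjusted p = 0.00409). In DKO_TG, replicate 3 lay below the highest WT library. The change there was 0.6 ± 0.18 (adjusted p = 0.0233), lost with quantile scaling (0.28, adjusted p = 0.232) and without WT replicate 1 or 2 or DKO_TG replicate 1 or 2 (adjusted p up to 0.0858). That call was also lost with a replicate block. Col16a1, the most abundant FACIT gene, was 8.79, 9.7 and 10.5 RPKM in WT, 13.7, 10.9 and 10.9 for DKO and 10.1, 9.2 and 9.18 for DKO_TG. DKO was above WT, and neither change was called (0.28 ± 0.11, adjusted p = 0.0577, and -0.02 ± 0.11, adjusted p = 0.897). Col14a1 was 0.803, 0.886 and 0.85 RPKM in WT against 0.705, 0.717 and 0.715 in DKO and 0.544, 0.588 and 0.61 in DKO_TG. The 3 groups did not overlap, and the change was called in DKO_TG (-0.32 ± 0.09, adjusted p = 0.0205) but not in DKO (-0.15 ± 0.09, adjusted p = 0.196). The DKO_TG call of Col14a1 was lost without WT replicate 2 or 3 or DKO_TG replicate 1 or 2, with plain total scaling, and with TPM, where the change was -0.01. Col9a2, a chain of the cartilage FACIT collagen IX, spread from 1.44 to 6.73 RPKM over the DKO libraries, and Col22a1 from 1.12 to 3.64 over the WT libraries, and neither was called.

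Of the remaining classes, 1 tested gene was called. Col8a2, a short-chain collagen of endothelial matrices, was 1.98, 2.54 and 2.64 RPKM in WT, 1.82, 1.72 and 1.18 for DKO and 1.83, 1.58 and 1.47 for DKO_TG. It was below WT in each knockout library, with changes of -0.48 ± 0.15 (adjusted p = 0.023) and -0.44 ± 0.15 (adjusted p = 0.0377). Both were lost without WT replicate 2 or 3, and without DKO replicate 3 or DKO_TG replicate 2 or 3 in their own comparison. They were also lost without a filter, with plain total scaling and with TPM, where the changes were -0.05 (adjusted p = 0.849) and -0.02 (adjusted p = 0.943). With a replicate block the DKO_TG call of Col8a2 was lost too. The partner of Col8a2, Col8a1, changed by -0.44 ± 0.2 and -0.45 ± 0.2 and was not called (adjusted p = 0.0884 and 0.0904). Col23a1, the most abundant transmembrane collagen, was 1.03, 0.826 and 0.971 RPKM in WT against 1.66, 1.17 and 0.834 in DKO and 0.847, 0.903 and 0.889 in DKO_TG, with overlapping ranges. Neither it nor Col13a1 (0.481 to 0.745 RPKM over all libraries) was called. Col26a1, a small collagen first described in testis and ovary, was 0.886, 1.23 and 1.36 RPKM in WT, 0.987, 0.757 and 0.542 for DKO and 0.822, 0.737 and 0.695 for DKO_TG. DKO_TG lay below WT, and its changes of -0.4 ± 0.16 in each comparison missed the threshold (adjusted p = 0.0602 and 0.0662).

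The 9 genes under the filter were Col2a1, Col9a1, Col9a3, Col10a1, Col17a1, Col19a1, Col24a1, Col25a1 and Col28a1. Col2a1, the main collagen of cartilage, had between 2 and 12 reads in any library. Col9a1 had 0 reads in every library, and Col19a1 had at most 2. Col9a3, another chain of collagen IX, had 2 to 6 reads in WT, 76 to 93 in DKO and 60 to 64 in DKO_TG. Tested without a filter, Col9a3 changed by 0.74 in DKO (adjusted p = 0.000165) and 0.7 in DKO_TG (adjusted p = 0.000225). It shares 234 exonic bases (6.07%) with the opposite-strand gene Tcfl5, which was at most 0.037 RPKM. Of the others, Col25a1 passed without a filter in DKO (0.32, adjusted p = 0.0306). The rest missed the threshold in every comparison.

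Summed over its genes, each abundant class had a lower level per length in the knockout groups, except that the fibrillar sum rose in DKO when TPM was used. The microfibrillar sum was 332 ± 37.2 RPKM in WT against 184 ± 9.2 in DKO and 171 ± 9.5 in DKO_TG. The basement membrane sum was 352 ± 27.8, 203 ± 18.6 and 209.8 ± 30.4. The fibrillar sum was 345 ± 38.9, 286 ± 53.2 and 212 ± 39.8. Log2 ratios to WT were -0.84 and -0.95 for the microfibrillar, -0.8 and -0.75 for the basement membrane and -0.28 and -0.71 for the fibrillar class in DKO and DKO_TG. The groups did not overlap except for the fibrillar sum in DKO, and the exact two-sided permutation p was 0.1, the smallest that 3 against 3 libraries can give, or 0.2 for that exception. The FACIT sum was 16.2 ± 0.551, 26.3 ± 4.95 and 21.6 ± 1.08 RPKM, at log2 ratios of 0.68 and 0.41 to WT (exact permutation p = 0.1 each). Without Col20a1, a sum chosen after the values were seen, it was 16.2, 15.6 and 16.7 RPKM in the WT libraries, 25.7, 18.9 and 21 in those of DKO and 18.3, 16.7 and 16 in those of DKO_TG. That sum did not overlap between DKO and WT (0.43, exact permutation p = 0.1) and did between DKO_TG and WT (0.07, exact permutation p = 0.4). Over all collagen genes the sum was 942, 1072 and 1140.5 RPKM in WT, 677, 771 and 668 for DKO and 711, 587 and 563 for DKO_TG. As shares of that sum, fibrillar genes made 32.7 ± 0.603% in WT against 40.4 ± 4.56% in DKO and 34 ± 2.26% in DKO_TG. Microfibrillar genes made 31.5 ± 0.912, 26.3 ± 3.1 and 27.8 ± 1.92%. FACIT genes made 1.55 ± 0.153, 3.77 ± 0.884 and 3.51 ± 0.274%. These are bulk libraries, so fewer cells of a type and less RNA per cell cannot be told apart.

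**Figure D3:**
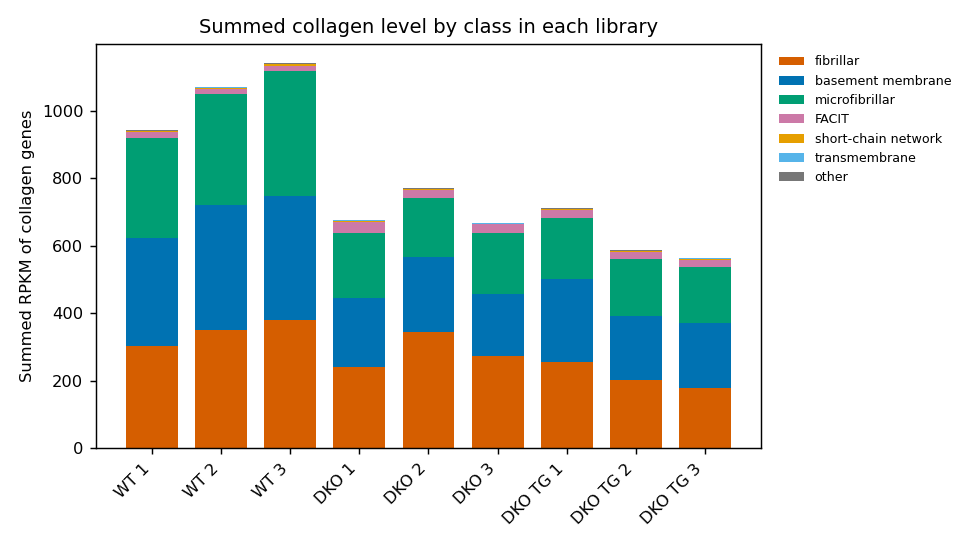
Summed RPKM of the collagen genes of each class, stacked in each of the 9 libraries. The total is between 942 and 1140.5 RPKM in the WT libraries and between 563 and 771 in the others, and with TPM the fibrillar part is instead higher in DKO.

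Ratios between chains of 1 trimer or fibril free the comparison from the scaling of the library. Of 6 pairs, each set against WT in DKO and in DKO_TG, 10 comparisons had no overlap. Each had an exact permutation p of 0.1, the smallest possible, and 0.164 after adjustment over the 18 tests. The WT libraries stood apart across the whole table. How often ratios of other gene pairs separate from WT is not given here, so the count is not particular to collagen chains. Col5a1 over Col5a2 was 1.7, 1.6 and 1.63 in WT against 0.96, 0.915 and 1.24 in DKO and 0.928, 1.12 and 1.11 in DKO_TG. Col3a1 over Col1a1 was 1.44, 1.18 and 1.35 in WT against 1.88, 1.83 and 2.26 in DKO and 2.19, 2.33 and 2.48 in DKO_TG. The first ratio was lower and the second higher in all 6 knockout libraries. Col4a1 over Col4a2 was narrow within groups, at 1.5 to 1.6 in WT, 1.79 to 1.81 in DKO and 1.74 to 1.82 in DKO_TG. Col1a1 over Col1a2 was 1.11 to 1.29 in WT, 0.903 to 1.17 in DKO and 0.893 to 0.917 in DKO_TG, so that WT overlapped with DKO and not with DKO_TG. Col6a1 over Col6a2 was 2.87 to 3.13 in WT, 3.05 to 3.56 in DKO and 3.61 to 3.9 in DKO_TG, and Col6a3 over Col6a1 was 0.0902 to 0.112, 0.114 to 0.141 and 0.129 to 0.144.

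**Figure D4:**
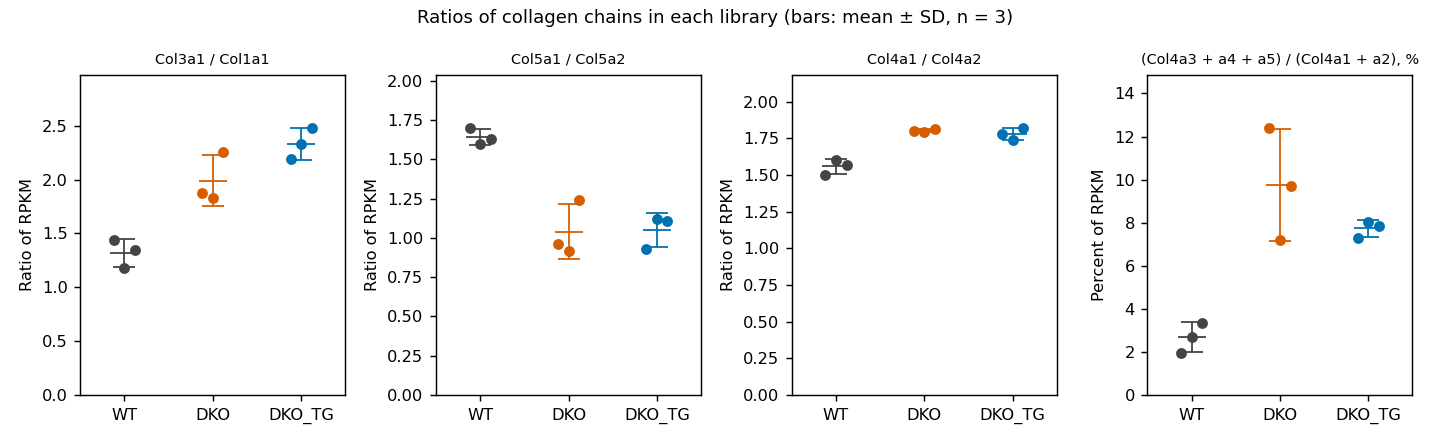
Ratio of RPKM between collagen chains in each library: Col3a1 over Col1a1, Col5a1 over Col5a2, Col4a1 over Col4a2, and the summed Col4a3, Col4a4 and Col4a5 as a percent of summed Col4a1 and Col4a2. Points are libraries and bars the mean ± SD (n = 3). In each panel drawn the WT points do not overlap with those of DKO or DKO_TG. Of the pairs not drawn, Col1a1 over Col1a2 and Col6a1 over Col6a2 overlapped between WT and DKO. The share in the last panel was defined after the values were seen, so its separation is no test.

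Against DKO, the transgene-labelled libraries gave 0 of 35 collagen genes higher (0.498% of all tested genes) and 0 lower (1.73% of all tested genes). At an unadjusted limma p under 0.05 there were 7, and the lowest adjusted p was 0.192, for Col5a1. The share of all tested genes at that unadjusted threshold is not given here, so the 7 are only listed. The 7 were Col5a1, Col1a1, Col16a1, Col6a2, Col5a2 and Col1a2 at lower values in DKO_TG and Col6a6 at a higher one. Col5a1 differed by -0.38 ± 0.13 and Col1a1 by -0.6 ± 0.22 (95% interval -1.1 to -0.09, adjusted p = 0.232), without overlap of the groups. Intervals for genes changed in both groups against WT were -0.4 to 0.57 for Col20a1, -0.6 to 0.07 for Col27a1, -0.22 to 0.36 for Col4a2 and -0.53 to 0.32 for Col4a4. The difference itself was not called for Col4a5, Col6a6, Col14a1 or Col1a2, the genes called in 1 of the comparisons with WT. Decorin (Dcn), a proteoglycan that coats collagen fibrils, was called in this comparison: 85.9 ± 9.4 RPKM in WT against 99.3 ± 9.69 in DKO and 57.6 ± 1.91 in DKO_TG, a difference between the knockout groups of -0.78 ± 0.11 (adjusted p = 0.0171).

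Genes that make, process or bind collagen were read from lists of known function, at the deposited scaling. There 30.8% of all tested genes were higher and 25.9% lower in DKO, and 29.1% and 22.3% in DKO_TG. Of 18 tested genes of chain modification and folding, DKO against WT gave 2 higher and 8 lower (median -0.31), and DKO_TG gave 1 and 6. P4hb, a subunit of prolyl hydroxylase and a disulfide isomerase, changed by -0.77 and Plod3, a lysyl hydroxylase, by -0.52, while P3h3, of the prolyl 3-hydroxylase family, and the collagen galactosyltransferase Colgalt2 rose by 0.32 and 0.85. Of 9 genes of procollagen secretion, 1 was higher and 3 lower, with Creb3l1, a transcription factor of the secretory pathway, at -1.11 (27.4 ± 3.45 RPKM in WT and 12.5 ± 2.4 in DKO) and Sec23a of the vesicle coat at -0.47, and with Preb, which starts the assembly of that coat, at 0.58. In DKO_TG that list gave 1 higher and 1 lower. Of 11 genes of processing and cross-linking, 3 were higher and 3 lower, and 2 and 5 in DKO_TG. The cross-linking oxidases Loxl2 and Loxl1 changed by -0.99 and -0.74, whereas peroxidasin (Pxdn), which cross-links collagen IV, and the procollagen protease Bmp1 rose by 0.82 and 0.67. Adamts2, which trims the amino end of procollagen, was called lower in DKO_TG than in DKO (-0.49 ± 0.1, adjusted p = 0.0423).

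Among 16 fibril-associated proteoglycans and glycoproteins, 4 were higher and 5 lower in DKO, and 1 and 6 in DKO_TG. For this list and those below, 30.8% of all tested genes were higher and 25.9% lower in DKO, and 29.1% and 22.3% in DKO_TG. Fibromodulin (Fmod), which binds collagen I fibrils, was 5.23 ± 0.591 RPKM in WT, 0.921 ± 0.255 for DKO and 1.09 ± 0.306 for DKO_TG (-2.02 ± 0.18, adjusted p = 3.56e-05). The proteoglycan Prelp changed by -0.77, and the matrix glycoproteins Abi3bp and Thbs2 rose by 1.12 and 0.39. Of 7 basement membrane partners of collagen IV, 1 was higher and 4 lower, and 2 and 3 in DKO_TG. Perlecan (Hspg2) changed by -0.72 and the collagen chaperone Sparc by -1.14, and agrin (Agrn) rose by 0.76. Of 12 collagen receptors, 2 were higher and 3 lower, and 2 and 6 in DKO_TG, with Antxr2, which takes up collagen VI, at -0.91, the integrin subunit Itgb1 at -0.41, Itga10 at 1.16 and the inhibitory receptor Lair1 at 0.69. Of 9 collagen-degrading proteases, 3 were higher and 5 lower, and 1 and 5 in DKO_TG, with the cathepsins Ctsl at -0.91 and Ctsk at 0.56, the prolyl peptidase Prep at -0.79 and the gelatinase Mmp9 at 0.65. Of 16 genes of TGF-beta signalling, a pathway known to drive collagen synthesis, 3 were higher and 5 lower, and 3 and 4 in DKO_TG. Its ligand Tgfb1 changed by -1.07 (8.33 ± 1.02 RPKM in WT and 3.82 ± 1.2 in DKO) and Ltbp4 by -0.62, and Smad7 and Ctgf rose by 0.95 and 0.64.

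Markers of cells that make collagen, and of other cells an ovary sample can hold, were read from the same libraries, at the deposited scaling. Over all tested genes 30.8% were higher and 25.9% lower in DKO, and 29.1% and 22.3% in DKO_TG. The summed level of 8 fibroblast and stroma markers was 229 to 266 RPKM in WT, 230.3 to 235 in DKO and 177 to 189.9 in DKO_TG, with 1 of 7 tested higher and 2 lower in DKO and 0 and 3 in DKO_TG. The fibroblast sums of DKO lay within the WT range. Dcn and Lum made most of them and differed in direction. Dcn was 85.9 RPKM in WT and 99.3 in DKO, and Lum 86.4 and 65.6. The 8 smooth muscle and pericyte markers summed to 291 to 348, 177 to 304 and 164 to 205 RPKM, with 0 higher and 3 lower in each comparison. Acta2 made most of that sum, at 241 to 274 RPKM in WT, 131 to 224 in DKO and 109.7 to 143 in DKO_TG. The 8 endothelial markers summed to 105 to 116, 74.3 to 118 and 93.9 to 113 RPKM, with 1 higher and 5 lower in DKO and 1 and 3 in DKO_TG, and the sums of both groups overlapped with WT. The 8 macrophage markers summed to 121 to 156, 177 to 356 and 85.8 to 89.9 RPKM, with 7 higher in DKO and 3 lower in DKO_TG. In DKO_TG against DKO 7 of these markers were lower, where 1.73% of all tested genes were lower. Granulosa markers, which define the tissue, were present in all libraries and summed to 1807 to 2513, 1136 to 2306 and 1669.6 to 2046 RPKM. The 7 surface epithelium markers summed to 26.5 to 56.3, 24 to 38.9 and 11.9 to 20.3 RPKM, with 0 called in DKO and 4 lower in DKO_TG. The 5 erythrocyte markers summed to 361 to 1657, 562 to 2409 and 198 to 285 RPKM, with 0 called in DKO and 3 lower in DKO_TG (median -1.79). Markers of tissue beside the ovary were low, but differed between groups. The 6 adipocyte markers summed to 10.5 to 31.9, 4.92 to 9.35 and 12.8 to 16.3 RPKM. Of 2 tested, 2 were lower in DKO and 1 in DKO_TG. The 5 oviduct markers summed to 7.05 to 8.88, 10.2 to 19.4 and 9.45 to 12.1 RPKM, above WT in each knockout library. Of 3 tested, 2 were higher and 1 lower in DKO, and 1 higher and 0 lower in DKO_TG. No listed marker was at 0 in all libraries, and the part of these cell types in the collagen values was not tested.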

How the data were processed

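The authors deposited RPKM values for 54838 genes in 9 libraries. The submitters' processing notes name HISAT2 2.1.0 and, among other tools, cutadapt, DESeq2 1.2.8 and HTSeq 0.5.4p5, with the build mm10. How the RPKM were made, on which annotation and with what use of strand is not given in the sources used here. RPKM times exon length (GENCODE M21) gave whole reads for 97.8% of values above 0, within 0.01 read or a relative 1e-06, and for 42 of the 44 collagen genes in all libraries. RPKM is no count, so log2(RPKM + 0.5) was fitted with limma 3.58.1 in R 4.3.3 (lmFit, eBayes with trend) over all 9 libraries in 1 fit, on genes with at least 0.5 RPKM in 3 libraries. P-values were Benjamini-Hochberg adjusted over 18889 genes. On simulated data (DKO against WT, 100 genes for each fold), the fit found 60% at 2-fold and 90% at 4-fold, with 10 false calls among 18105 genes. The simulation changed only those genes and held no table-wide shift and no difference in scaling between WT and the other libraries. Its false calls therefore do not measure the error of the comparisons with WT. Class sums and chain ratios were compared with exact permutation tests. All 37 genes named mt- were listed at 0. The members and gene lists were chosen with earlier results of these data known. Values by library are given for the most abundant member of each class, the smallest adjusted p in each direction and the partner chains, and, after their values were seen, for further called members. Of each gene list, up to 2 genes per direction with the smallest adjusted p in DKO against WT are named, and Dcn and Adamts2 were added after their values were seen. The fit was repeated with a pseudocount of 0.1 or 1, without a filter or with one at 1 RPKM, with TMM, TPM or quantile scaling, with voom on recovered reads, with a replicate block, on the 6 libraries of a comparison, without each library in turn, and, added after the data were examined, scaling to the plain total of reads and the FACIT sum without Col20a1.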

Additional observations from a re-analysis of the deposited data

How the results depend on the processing

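Of 19 collagen genes called in each comparison with WT, 6 were called under every alternative that could be fitted. They were Col20a1, Col27a1, Col4a2, Col4a4 and Col6a2 in both, Col12a1 in DKO and Col1a1 in DKO_TG. How many of all called genes held under every alternative is not given here. Col20a1 was below 0.5 RPKM in every WT library and passed the filter through the groups where it is high. In DKO against WT, 8 higher and 11 lower calls became 5 higher with a filter at 1 RPKM, 16 higher and 2 lower with TPM, and 4 lower with plain total scaling. Leaving out 1 library gave 7 to 10 higher and 5 to 12 lower, with 5 lower without WT replicate 2 or WT replicate 3 and 7 without DKO replicate 3. In DKO_TG against WT, 7 higher and 12 lower became 4 higher with a filter at 1 RPKM, 3 higher with quantile scaling, 4 lower with TPM and 7 lower with plain total scaling, and leaving out 1 library gave 6 to 7 higher and 9 to 14 lower. The median change became 0.18 in DKO with TPM, and 0.28 in DKO_TG with TPM and 0.08 with plain total scaling. DKO_TG against DKO gave 0 to 1 higher, the 1 without DKO replicate 1. With TPM, Col5a1 in DKO was at 0.14 (adjusted p = 0.523) and Col18a1 in DKO_TG at 0.03 (adjusted p = 0.908). Log2 ratios of class sums with TPM were 0.28 and -0.18 (fibrillar), -0.24 and -0.22 (basement membrane), -0.29 and -0.42 (microfibrillar) and 1.24 and 0.94 (FACIT) in DKO and DKO_TG. At the deposited scaling the FACIT ratios of 0.68 and 0.41 became 1.12 and 0.88 without Col16a1, and 0.43 and 0.07 without Col20a1. With the replicate number as a block, calls were 7 higher and 10 lower in DKO, 6 and 10 in DKO_TG and 0 and 0 between them. Deviations of same-numbered libraries from their group means correlated at -0.309 to 0.142, which shows no pairing by number. With 3 libraries a group these values cannot decide whether same-numbered libraries were handled together, and the labels do not say. The cause of these changes was not tested. Levels under about 0.1 RPKM rest on few reads, such as 21 to 27 for Col20a1 in WT, and their ratios carry that counting error.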
